A study of Homo sapiens with 6 samples.

Results

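YAP1 and TAZ, the DNA-binding partner TEAD1, 3 genes whose products regulate them and 4 of their transcriptional targets were followed through the silencing of CIP2A in HCC38, a human cell line established from breast ductal carcinoma and labelled triple negative, of basal-like type. The 10 genes were taken by symbol from a table of 26485 genes: YAP1, WWTR1 (the gene of TAZ), TEAD1, LATS2, AMOTL2, AJUBA, CYR61 (now CCN1), CTGF (now CCN2), ANKRD1 and AXL. All 10 were found and all 10 were among the 13562 genes with enough reads to be tested. CIP2A encodes an inhibitor of the phosphatase PP2A. The 3 control libraries were a mock and the non-targeting siRNAs SCR#2 and SCR#3, with 1 library each, and the silenced group was made up of single libraries of the CIP2A siRNAs siCIP2A#1, siCIP2A#2 and siCIP2A#3. siRNAs were delivered with Oligofectamine. A label gives the mock as reagent alone and the design text gives it as not transfected. No label states that the libraries were grown as separate cultures; the p-values therefore describe only how these libraries vary, which may be technical.

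In the Hippo pathway, a kinase cascade that ends in LATS1 and LATS2 phosphorylates YAP1 and TAZ and keeps them out of the nucleus. When the cascade is quiet, both coactivators enter the nucleus and bind TEAD factors on DNA, and genes such as CYR61, CTGF and ANKRD1 are transcribed. The STRIPAK complex, a form of PP2A, acts on kinases of this cascade, and the transcription of LATS2 and AMOTL2 by YAP1 itself gives negative feedback. Messenger RNA levels show neither the phosphorylation nor the location of YAP1 and TAZ.

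The promoters of CTGF and ANKRD1 are shown because these targets differed most in level between CIP2A siRNAs, a choice made after their values were seen. Each line is the 250 bases before the RefSeq transcription start in GRCh38.p14, on the gene's own strand, with the core of the TEAD motif in capitals. CTGF lies at chr6:131951373-131951622 and ANKRD1 at chr10:90921088-90921337, both on the minus strand.
CTGF: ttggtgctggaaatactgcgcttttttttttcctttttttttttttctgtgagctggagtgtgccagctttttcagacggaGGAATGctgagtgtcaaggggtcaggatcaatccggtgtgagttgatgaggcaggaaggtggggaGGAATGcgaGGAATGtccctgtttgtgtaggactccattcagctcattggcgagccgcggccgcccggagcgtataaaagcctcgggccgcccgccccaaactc
ANKRD1: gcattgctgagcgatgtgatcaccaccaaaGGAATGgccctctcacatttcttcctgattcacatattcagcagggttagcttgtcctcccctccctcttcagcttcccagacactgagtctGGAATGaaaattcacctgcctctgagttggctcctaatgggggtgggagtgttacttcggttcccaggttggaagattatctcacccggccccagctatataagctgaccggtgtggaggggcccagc
The motif searched was GGAATG on either strand (CATTCC on the other). CTGF held it 3 times, with the motif's first base 169, 104 and 95 bases before the start. ANKRD1 held it at 220 and 128 bases before the start. Between these, at 195, was 1 match to TGANTCA, a loose AP-1 pattern in which N is any base, that overlapped neither. The match read TGATTCA, with a T in the middle.

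RefSeq windows were matched for 8 of the 10 genes, and 12 windows in all were read; CYR61 and TEAD1 were not matched. The TEAD core was in 6 of the 12 windows, 1 for each of 6 genes: CTGF, ANKRD1, YAP1, AMOTL2, AJUBA and AXL. Among all 35116 windows of the table, 11.9% held it in the same 250 bases, 0.940% held it at least 2 times and 0.0826% at least 3 times. The loose AP-1 pattern was found in 1 of the 12 windows, that of ANKRD1, against 6.57% of all windows. The CArG box, by which SRF binds, was in none of the 12, against 1.16%. A match describes letters in the window and not a bound site.

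Total counts per library ranged from 13995187 to 18161451, and the deepest was that of siCIP2A#1. The mock stood apart within the controls: chi-square per degree of freedom was 3.22 between SCR#2 and SCR#3 but 11.4 and 9.06 between the mock and each of them, against 9.04 to 15.3 between controls and silenced libraries. The silenced libraries were farthest from each other, at 15.5 for siCIP2A#1 and #2, 17.6 for #1 and #3, and 18.1 for #2 and #3. Levels below are CPM, counts scaled to the TMM-adjusted library total of the tested genes, and a count of 3, taken as the limit of detection, corresponded to 0.162 to 0.218 CPM. CIP2A had control levels of 98.9 (mock), 99.8 (SCR#2) and 103 CPM (SCR#3) and silenced levels of 16.3, 45.8 and 19.3 CPM for siCIP2A#1, #2 and #3. The silenced libraries all lay below the controls, at 16.3%, 45.5% and 19.2% of the control mean. Each siRNA's CIP2A difference passed edgeR's test (log2 -2.62, -1.13 and -2.38, adjusted p 0.000241, 0.0165 and 0.000468). Over the group, the difference of -1.90 did not pass edgeR's test (adjusted p = 0.708), but it passed without siCIP2A#2 (-2.50, edgeR adjusted p = 1.2e-05) and with a replicate block in the fit (-2.03, edgeR adjusted p = 0.0345). It passed in only these 2 of 14 alternatives, with differences from -2.50 to -1.63 over all of them. The keratins that define basal cells were absent from a line labelled basal-like: KRT14 was at 0 in every library, KRT5 and KRT17 were below the limit of detection, and EPCAM stayed under 1 CPM, while EGFR stood at 73.0 to 84.4 CPM. The simple-epithelium keratins KRT8 and KRT18 had the following levels, with no test made: KRT8 measured 277 to 383 CPM in the controls and 439, 409 and 252 CPM under siCIP2A#1, #2 and #3, and KRT18 measured 442 to 566 CPM and then 708, 527 and 395 CPM. Summed over the 5 epithelial markers (4 tested), levels were 720 to 949 CPM in the controls and 648 to 1149 CPM in the silenced libraries. Nearly all of this sum was KRT8 and KRT18. Like EPCAM, the other epithelial markers were low in every library: CDH1 (E-cadherin) measured 0.146 to 1.22 CPM and KRT19 0.177 to 0.710 CPM. PTPRC of leukocytes and CDH5 of endothelium were at 0 in every library. The 5 endothelial markers (3 tested) summed to 7.79 to 11.3 CPM in the controls and 7.36 to 14.2 CPM in the silenced libraries, and KDR measured 6.28 CPM under siCIP2A#1 and 3.53 CPM under siCIP2A#3. Summed fibroblast markers (7 genes, 3 tested) were 6.72 to 8.48 CPM in the controls and 6.54 to 18.8 CPM in the silenced libraries, and the upper value was siCIP2A#1, where COL1A1 stood at 14.4 CPM against 4.62 to 6.59 CPM elsewhere.

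No gene of the 10 passed the test in the silenced group against the controls. The background was the same: edgeR called 0 of 13562 genes, that is 0%, although 369 genes had an unadjusted p under 0.05, none of them among the 10. DESeq2 called 3 genes, again none of the 10. Of the 10, 2 lay above 0 and 8 below, with a median log2 difference of -0.14 beside -0.0011 over all tested genes. The silenced and control libraries overlapped in level for all 10, whereas 3.26% of tested genes had all silenced libraries above all controls and 4.38% had all below. Exact two-sided permutation p-values ran from 0.2 to 1, and 3 libraries against 3 cannot give less than 0.1. In bulk RNA, fewer cells of a type and less RNA per cell cannot be told apart.

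**Figure D1:**
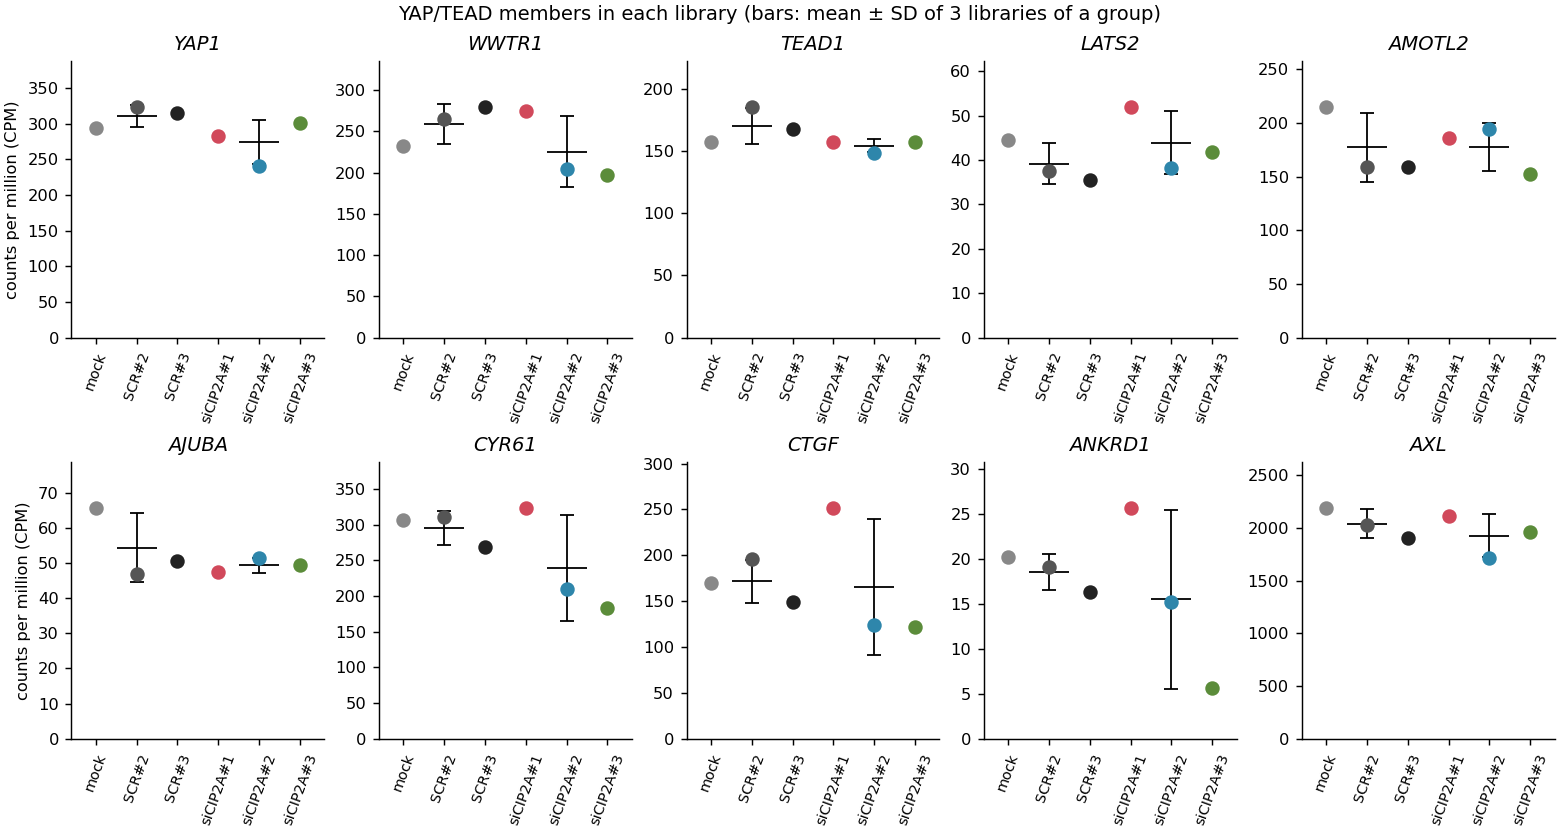
Level of each of the 10 genes in each library, in CPM on linear axes that start at 0; points are libraries and bars are the mean ± SD of 3 libraries of a group. The library of siCIP2A#1 is the highest for CYR61, CTGF, ANKRD1 and LATS2, and that of siCIP2A#3 is the lowest for CYR61, CTGF and ANKRD1.

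Per kilobase of exon, which allows genes to be compared, the control mean was highest for AXL at 417 ± 28.6 CPM per kb (SD, n = 3). CYR61 followed at 129 ± 10.3, CTGF at 73.5 ± 9.99, YAP1 at 55.2 ± 2.62, WWTR1 at 48.2 ± 4.48, AMOTL2 at 37.1 ± 6.75 and TEAD1 at 18.3 ± 1.52 CPM per kb. AJUBA at 11.4 ± 2.07, ANKRD1 at 9.37 ± 1.01 and LATS2 at 7.12 ± 0.857 CPM per kb were the lowest. The control libraries of WWTR1 and AMOTL2 overlapped on this scale, as did those of AJUBA and ANKRD1. The receptor and the secreted CCN targets thus stood above the coactivators in this line, while ANKRD1, a target of the same factors, stood near the bottom.

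Neither coactivator passed the test. YAP1, at chr11:102110447-102233424, measured 294 CPM in mock, 323 in SCR#2 and 315 in SCR#3, and 282, 240 and 301 CPM under siCIP2A#1, #2 and #3. Its lowest library was siCIP2A#2, while siCIP2A#3 lay within the controls. The group difference of YAP1 was -0.18 ± 0.10 (SE, log2), with a 95% interval of -0.39 to 0.03. WWTR1, at chr3:149517235-149724788, stood at 232, 265 and 279 CPM in the mock, SCR#2 and SCR#3, and at 275, 205 and 197 CPM with siCIP2A#1, #2 and #3. The siCIP2A#1 library lay within the controls and the other silenced libraries below all of them. Its group difference was -0.20 ± 0.13 (SE, log2; 95% interval -0.47 to 0.08). The ratio of WWTR1 to YAP1 per kilobase was 0.828 to 0.931 in the controls and 1.02, 0.896 and 0.685 with siCIP2A#1, #2 and #3, so it was highest and lowest in silenced libraries.

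TEAD1, at chr11:12674421-12944737, is the DNA-binding partner. It had control levels of 157 (mock), 185 (SCR#2) and 167 CPM (SCR#3) and silenced levels of 157, 148 and 157 CPM for siCIP2A#1, #2 and #3. The silenced libraries (154 ± 4.98 CPM, SD, n = 3) were closer together than the controls (170 ± 14.1 CPM), and none exceeded SCR#2 or SCR#3. The group difference was -0.14 ± 0.09 (SE, log2; 95% interval -0.34 to 0.05). TEAD1 made up 22.1% to 27.8% of the summed TEAD1 to TEAD4 level per kilobase in the controls and at most 22.7% in the silenced libraries.

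None of the 3 regulators passed the test. LATS2, the kinase at chr13:20973036-21061586, measured 44.6 CPM in mock, 37.5 in SCR#2 and 35.6 in SCR#3, and 51.9, 38.1 and 41.7 CPM under siCIP2A#1, #2 and #3. Its highest library was siCIP2A#1, and the other silenced libraries lay inside the control range. The group difference of LATS2 was 0.17 ± 0.13 (SE, log2; 95% interval -0.13 to 0.46). It was 0.027 without siCIP2A#1 and 0.27 without the mock.

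AMOTL2, an angiomotin that holds YAP1 at junctions, lies at chr3:134355345-134375417. It had control levels of 215 (mock), 159 (SCR#2) and 159 CPM (SCR#3) and silenced levels of 186, 194 and 153 CPM for siCIP2A#1, #2 and #3, so that the mock was the highest library. AJUBA, a LIM protein that binds and inhibits LATS kinases, lies at chr14:22971177-22982551. It stood at 65.7 CPM in the mock and between 46.9 and 51.5 CPM in the other 5 libraries, again with the mock highest. Group differences were 0.0024 ± 0.13 (SE, log2) for AMOTL2 and -0.14 ± 0.13 for AJUBA. With the mock given its own level in the fit, the AJUBA difference changed sign, to 0.017.

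CYR61, CTGF and ANKRD1 each had silenced libraries on both sides of the controls. CYR61, a secreted matricellular protein, lies at chr1:85580761-85583950. It measured 306 CPM in mock, 311 in SCR#2 and 268 in SCR#3, and 323, 210 and 183 CPM under siCIP2A#1, #2 and #3. The siCIP2A#1 library was above every control and the others below every control. The mean was 295 ± 23.5 CPM in the controls and 239 ± 74.2 CPM in the silenced libraries (SD, n = 3 each), a difference of -0.31 ± 0.17 (SE, log2; 95% interval -0.67 to 0.06). It was -0.59 without siCIP2A#1 and -0.15 without siCIP2A#3.

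CTGF, the related matricellular protein at chr6:131948176-131951372, had control levels of 170 (mock), 196 (SCR#2) and 149 CPM (SCR#3) and silenced levels of 251, 124 and 121 CPM for siCIP2A#1, #2 and #3. The order against the controls was that of CYR61: above all of them with siCIP2A#1 and below all of them with the other siRNAs. Means were 172 ± 23.4 CPM in the controls and 166 ± 74.3 CPM in the silenced libraries (SD, n = 3 each). The group difference of CTGF was -0.05 ± 0.24 (SE, log2; 95% interval -0.58 to 0.47), and it was above 0 without SCR#2, siCIP2A#2 or siCIP2A#3.

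ANKRD1, a muscle and stress-inducible ankyrin repeat protein, lies at chr10:90912096-90921087. It measured 20.2 CPM in mock, 19.1 in SCR#2 and 16.4 in SCR#3, and 25.7, 15.2 and 5.66 CPM under siCIP2A#1, #2 and #3, from counts of 278, 326, 241, 474, 235 and 96. These are 138%, 81.8% and 30.5% of the control mean with siCIP2A#1, #2 and #3. The group difference was -0.25 ± 0.38 (SE, log2), and its 95% interval of -1.08 to 0.57 holds large changes in either direction. Without siCIP2A#3 it was 0.14.

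AXL, a receptor tyrosine kinase and the most abundant of the 10, lies at chr19:41219223-41261766. It had control levels of 2188 (mock), 2032 (SCR#2) and 1908 CPM (SCR#3) and silenced levels of 2112, 1715 and 1958 CPM for siCIP2A#1, #2 and #3. Only the siCIP2A#2 library lay outside the controls, below them. The group difference was -0.08 ± 0.09 (SE, log2), with a 95% interval of -0.28 to 0.12, the narrowest bounds among the targets.

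Exons of YAP1, WWTR1, CTGF and AXL overlap antisense genes (AP000942.2 over 628 bases, WWTR1-AS1 over 627, AL133346.1 over 195 and AC011510.1 over 67), and those of AMOTL2 and AJUBA overlap genes of the same strand (RPL39P5 over 187 bases and AL132780.3 over 50). As the strand setting of the counting is not given in the sources used here, reads there cannot be told apart. TEAD1, LATS2, CYR61 and ANKRD1 had no such overlap.

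Each siRNA is a different reagent and was set against the 3 controls apart. The spread between replicates came from the controls alone, and edgeR moderated it for each gene with information from all tested genes. These comparisons share their controls. With siCIP2A#1, none of the 10 genes passed edgeR's test, against 0.118% of all tested genes. CTGF was 1.46-fold the control level (log2 0.55 ± 0.14 SE, edgeR adjusted p = 0.217), ANKRD1 1.38-fold (0.47 ± 0.16, adjusted p = 0.35) and LATS2 1.32-fold (0.41 ± 0.14, adjusted p = 0.378). These were the 3 members with an unadjusted p under 0.05, which 9.95% of all genes had. In direction, 7 of the 10 lay above 0, beside 48.8% of all genes. The remaining members lay between -0.20 for AJUBA and 0.13 for CYR61. DESeq2 also called none of the 10, against 0.612% of its genes. Without SCR#2 CTGF was called (0.745% of genes called), without SCR#3 none was (0.617%), and without the mock AMOTL2, ANKRD1 and LATS2 were (13.8% of all genes called).

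With siCIP2A#2, none of the 10 passed edgeR's test either, against 0.0737% of genes. CYR61 was 1.41-fold below the controls (log2 -0.49 ± 0.11 SE, edgeR adjusted p = 0.237) and CTGF 1.39-fold below (-0.47 ± 0.15, adjusted p = 0.334). YAP1 itself stood at -0.37 ± 0.10 (SE, log2; edgeR adjusted p = 0.268), WWTR1 at -0.34 and AXL at -0.25. Those were the 5 members with an unadjusted p under 0.05, beside 11.6% of all genes. Here 9 of the 10 lay below 0 and 1 above, where 49.4% of all genes lay above. DESeq2 called none of the 10 (background 0.532%), and none was called without SCR#2 (0.292%) or SCR#3 (0.363%). Without the mock, YAP1, WWTR1, TEAD1, AMOTL2, CYR61 and AXL were called, in a fit that called 22.4% of all genes.

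With siCIP2A#3, none of the 10 passed edgeR's test in a comparison that called 1 gene, 0.00737% of those tested. ANKRD1 was 3.28-fold below the controls (log2 -1.71 ± 0.20 SE, edgeR adjusted p = 0.0722) and CYR61 1.61-fold below (-0.69 ± 0.11, adjusted p = 0.221). CTGF at -0.50 ± 0.15 and WWTR1 at -0.40 ± 0.12 (SE, log2; edgeR adjusted p = 0.497 each) were the other members with an unadjusted p under 0.05, which 8.22% of all genes had. Again 9 of the 10 lay below 0 and 1 above, with 48.0% of all genes above. YAP1 stood at -0.04 and AXL at -0.06. The outcome for ANKRD1 and CYR61 depended on the tool: DESeq2 called both as lower, against 0.214% of all genes. Both were also called by edgeR without SCR#2 (0.241% of genes called), without SCR#3 (0.232%) and, together with WWTR1, without the mock (9.65%).

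**Figure D2:**
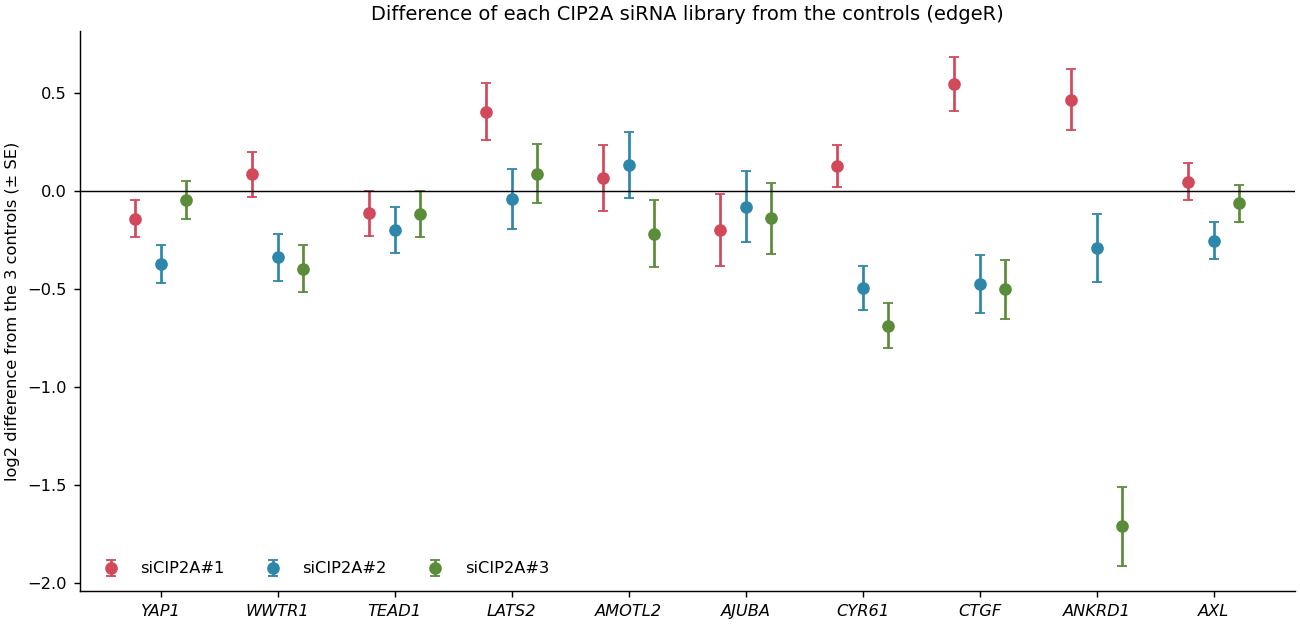
Log2 difference of each silenced library from the 3 controls for the 10 genes, with bars of ± 1 SE from edgeR. CTGF lies at 0.55 with siCIP2A#1 and at -0.47 and -0.50 with the other siRNAs, and ANKRD1 runs from 0.47 to -1.71.

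The siRNAs were then compared with each other, which needs no control level, although the spread still comes from the controls. Between siCIP2A#1 and siCIP2A#3, 2 of the 10 genes passed edgeR's test, ANKRD1 and CYR61, in a comparison that called 0.509% of all genes. ANKRD1 was 4.53-fold higher with siCIP2A#1 (log2 2.18 ± 0.22 SE, 95% interval 1.67 to 2.69, edgeR adjusted p = 0.0219). CYR61 was 1.76-fold higher (0.82 ± 0.13, interval 0.51 to 1.12, edgeR adjusted p = 0.0476). CTGF was 2.07-fold the siCIP2A#3 level and just missed the threshold (1.05 ± 0.18, interval 0.64 to 1.46, edgeR adjusted p = 0.0542). The coactivator YAP1 stood at -0.09, its partner TEAD1 at 0.0037 and AXL at 0.11. The other coactivator gene, WWTR1, stood at 0.48 ± 0.14 (SE, log2; unadjusted p = 0.00884, edgeR adjusted p = 0.205).

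The ANKRD1 difference between siCIP2A#1 and siCIP2A#3 passed in all 7 alternatives and the CYR61 difference in 5 of them. CYR61 lost its call with RLE factors and with a filter of 1 CPM in 3 libraries, at up to an adjusted p of 0.0517 by edgeR. DESeq2 called ANKRD1, CYR61 and CTGF, against 1.2% of all genes, and edgeR called the same 3 without SCR#2 (1.76%) and without SCR#3 (1.55%). Without the mock, 5 members were called among 18% of all genes. The level of CIP2A was close in these libraries, with an interval that includes 0 (log2 -0.24 ± 0.15 SE, 95% interval -0.58 to 0.11, edgeR adjusted p = 0.542). KRT8, KRT18, KDR and PECAM1 were likewise highest with siCIP2A#1 and lowest with siCIP2A#3, and COL1A1 was highest with siCIP2A#1. Other markers of these lists, at low levels, did not share that order. EPCAM, CDH1 and TEK were highest in SCR#3, KRT19 was highest with siCIP2A#2, and VWF was lowest with siCIP2A#2. Among fibroblast markers, PDGFRB and LUM were also highest with siCIP2A#1, but COL1A2 was highest in the mock, PDGFRA in SCR#2, and COL3A1 and DCN with siCIP2A#2. Summed epithelial, endothelial and fibroblast markers are given above, with CDH5 at 0, and their part in these differences was not tested.

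**Figure D3:**
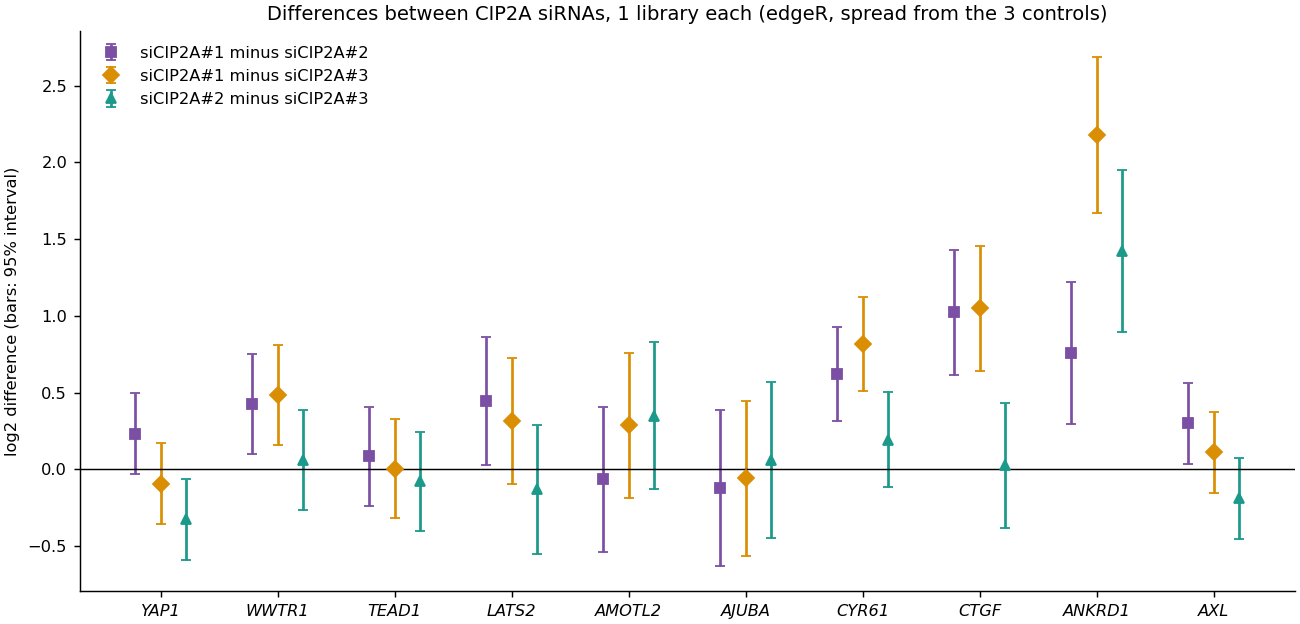
Log2 differences between CIP2A siRNAs, 1 library each, for the 10 genes, with 95% intervals from edgeR. For siCIP2A#1 minus siCIP2A#3, ANKRD1 at 2.18 and CYR61 at 0.82 passed the test, and CTGF at 1.05 did not.

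Between siCIP2A#1 and siCIP2A#2, none of the 10 passed edgeR's test, against 0.0147% of all genes. CTGF was 2.03-fold the siCIP2A#2 level (log2 1.02 ± 0.18 SE, edgeR adjusted p = 0.113), CYR61 1.54-fold (0.62 ± 0.13, adjusted p = 0.164) and ANKRD1 1.69-fold (0.76 ± 0.20, adjusted p = 0.223). CIP2A itself differed here (log2 -1.49, edgeR adjusted p = 0.0302). DESeq2 called CTGF and CYR61, against 0.711% of its genes. Without SCR#2 edgeR called the same pair (0.826% of genes), without SCR#3 CTGF (0.734%) and without the mock 6 members (16.7%).

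Between siCIP2A#2 and siCIP2A#3, edgeR called 0% of genes and none of the 10, while 2116 genes had an unadjusted p under 0.05. ANKRD1 was the farthest from 0, at 2.68-fold the siCIP2A#3 level (log2 1.42 ± 0.23 SE, edgeR adjusted p = 0.0933), and YAP1 stood at -0.33 ± 0.12 (adjusted p = 0.249), while CTGF (0.03 ± 0.18, 95% interval -0.38 to 0.43) and CYR61 (0.19 ± 0.13, interval -0.11 to 0.50) had intervals that include 0. DESeq2 called ANKRD1 as higher, against 0.923% of its genes. So did edgeR without SCR#2 (1.01%) and without SCR#3 (0.784%), and without the mock 4 members were called in a fit that called 22% of all genes.

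**Figure D4:**
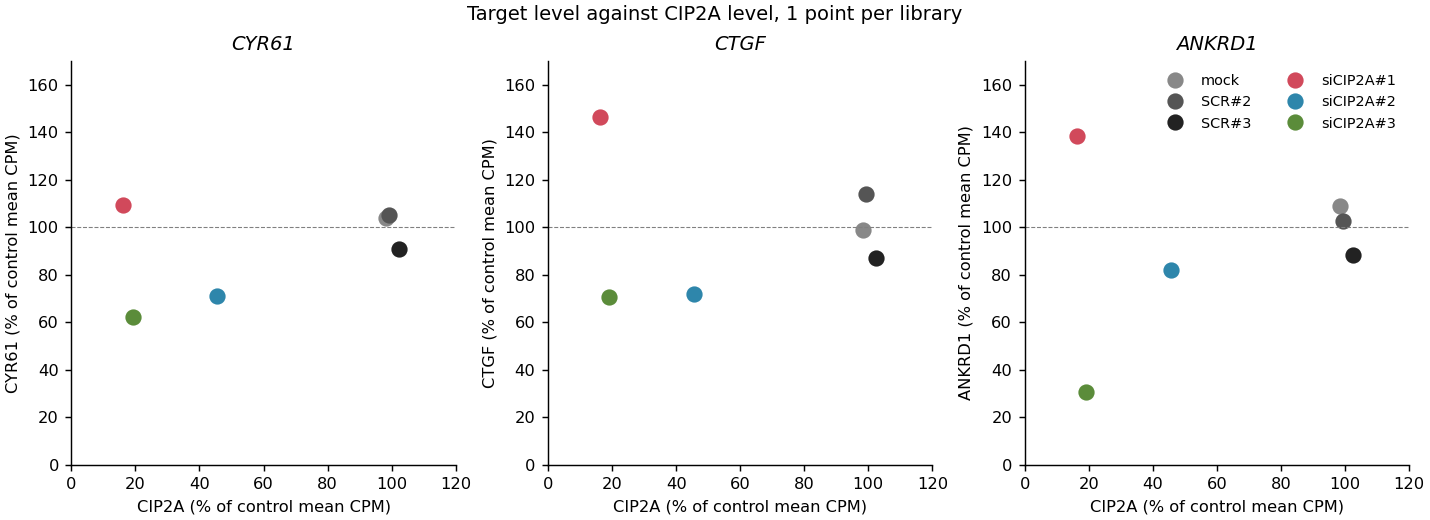
CYR61, CTGF and ANKRD1 against CIP2A, both as percent of their control mean CPM on linear axes from 0, with 1 point per library. The libraries of siCIP2A#1 and siCIP2A#3, at 16.3% and 19.2% of the CIP2A level, lie at 138% and 30.5% for ANKRD1.

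The non-targeting siRNAs give the background of transfecting an siRNA. In the edgeR fit for this, the spread came from SCR#2 against SCR#3 and from the 3 CIP2A siRNA libraries. Those silenced libraries, of different reagents, were the farthest from each other, so this fit cannot decide whether such a background is absent. Against the single mock library, edgeR called 0% of genes and none of the 10, while 856 genes had an unadjusted p under 0.05, and DESeq2 called 3 genes, none of them among the 10. AMOTL2 (log2 -0.44 ± 0.15 SE, edgeR adjusted p = 0.703) and AJUBA (-0.43 ± 0.14, adjusted p = 0.701) were farthest from 0 and were the members with an unadjusted p under 0.05. The targets lay closer, at -0.08 ± 0.28 for CYR61 and 0.02 ± 0.40 for CTGF (SE, log2). ANKRD1 stood at -0.19 ± 0.62 and AXL at -0.15 ± 0.13. The 95% intervals were -0.73 to 0.57 for CYR61, -0.89 to 0.94 for CTGF and -1.62 to 1.23 for ANKRD1. These intervals hold large changes in either direction.

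The rest of the pathway was read from 7 lists. In the silenced group and with each siRNA against the controls, edgeR called no member of any list. The shares called among all tested genes were 0% for the group and 0.118%, 0.0737% and 0.00737% for siCIP2A#1, #2 and #3. The kinase cascade and its upstream parts (21 of 21 tested) had a median group difference of 0.01, with 13 genes above 0 and 8 below. LATS1, the partner kinase of LATS2, stood at 0.14 ± 0.10 (SE, log2), STK3, an upstream kinase, at -0.16 ± 0.11, and RASSF1, a scaffold that binds the upstream kinases, at 0.29 ± 0.20. The junction and polarity proteins that act on the pathway (17 of 20 tested) had a median of 0.08, with 10 above and 7 below. WTIP, a LIM protein related to AJUBA, was the farthest at 0.52 ± 0.20, and FAT1, a giant cadherin, stood at 0.20 ± 0.09. The silenced libraries of FAT1, at 217, 224 and 259 CPM, lay above the controls of 197 to 207 CPM. Of all tested genes, 3.26% had this order.

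Among the other TEAD factors and the VGLL cofactors that compete for TEAD (6 of 7 tested), the median was 0.08, with VGLL4 at 0.14 ± 0.09 and TEAD3 at 0.15 ± 0.11 (SE, log2). The STRIPAK phosphatase complex (17 of 19 tested) had a median of 0.03, with 13 genes above 0 and 4 below. Its kinase STK26 stood at -0.28 ± 0.14 and the PP2A catalytic subunit PPP2CB at -0.17 ± 0.10, while STRN4 stood at 0.21 ± 0.13 and STK24 at 0.10 ± 0.08. The CCN and TAM relatives of CYR61, CTGF and AXL (5 of 8 tested) had a median of 0.09. NOV, a CCN protein, stood at 0.29 ± 0.15, and GAS6, the ligand of AXL, at 0.09 ± 0.14. Genes of SRF and its MRTF cofactors (12 of 13 tested), which also answer to actin, had a median of -0.05, with 3 above 0 and 9 below. ACTA2, smooth muscle actin, stood at -0.41 ± 0.17 and FHL2 at -0.17 ± 0.09, while CNN2 stood at 0.21 ± 0.12.

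The list of other YAP and TAZ targets (19 of 21 tested) had a median of -0.04 in the group, and 0.04, -0.15 and -0.11 with siCIP2A#1, #2 and #3, beside medians near 0 over all tested genes (-0.0063, -0.003 and -0.0091). THBS1, a matrix glycoprotein, stood at 74.5 CPM with siCIP2A#1, 61.3 with siCIP2A#2 and 51.6 with siCIP2A#3, against 47.7 to 57.7 CPM in the controls. DOCK5 stood at -0.25 ± 0.11 and KRT34 at -0.61 ± 0.34 in the group (SE, log2). TGFB2, a secreted growth factor of the TGF-beta family, was the only gene of the 7 lists called by edgeR in any of the 8 comparisons. The call was for siCIP2A#1 against siCIP2A#3, where 0.509% of all tested genes were called. TGFB2 measured 9.46 CPM in mock, 6.66 in SCR#2 and 8.28 in SCR#3, and 18.9, 6.39 and 6.36 CPM under siCIP2A#1, #2 and #3. The siCIP2A#1 library was above all others, and its difference from siCIP2A#3 was 1.57 ± 0.26 (SE, log2; edgeR adjusted p = 0.0476), lost with RLE factors and with the filter of 1 CPM (adjusted p 0.0514 and 0.0517). Against the controls the siCIP2A#1 difference was 1.22 ± 0.19 (edgeR adjusted p = 0.0721).

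**Figure D5:**
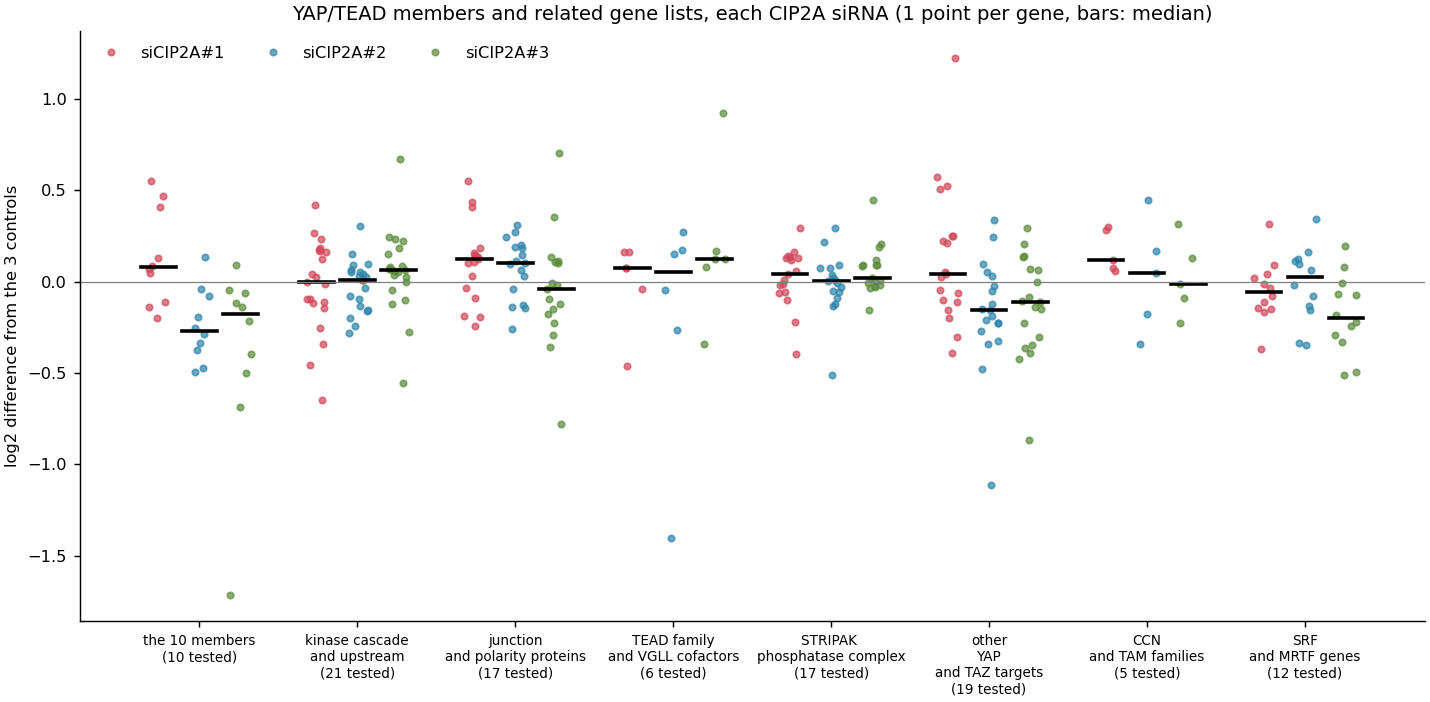
Log2 difference from the 3 controls with each CIP2A siRNA, 1 point per tested gene and a bar at the median, for the 10 genes and for 7 related lists. The 10 genes have medians of 0.08, -0.27 and -0.18 with siCIP2A#1, #2 and #3, and the other YAP and TAZ targets 0.04, -0.15 and -0.11.

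The genes whose pattern over the 6 libraries was most like that of the 3 targets were found by the root mean square difference of centred log2 CPM, among 12096 genes. For CYR61 these were SYNC (0.0707), STYK1 (0.0857) and FGF1 (0.0913), where the SD of CYR61 itself was 0.338. For CTGF they were SLC22A4 (0.0816), LINC00460 (0.0997) and AOX1 (0.116), beside an SD of 0.404. ANKRD1 had no neighbour as close: RRAD (0.215), ARHGDIB (0.219) and C15orf48 (0.25), beside an SD of 0.751. RRAD stood at 5.39, 4.15 and 4.55 CPM in the mock, SCR#2 and SCR#3. With siCIP2A#1, #2 and #3 it stood at 6.50, 5.49 and 1.47 CPM. It was chosen for its likeness over these same libraries, so its low value with siCIP2A#3 is no separate observation.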

How the data were processed

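Poly(A) RNA of 6 HCC38 libraries was sequenced after a stranded TruSeq preparation, per the labels' protocols. The submitters' processing notes name hg38, STAR 2.5.4b, Subread 1.5.1 and bcl2fastq 2.17; for annotation and multi-mapping rules, nothing is given in the sources used here. The authors deposited whole-number counts per gene, not normalized, per the file headers. Members and lists were chosen with earlier results of these data known. Here, filterByExpr (minimum count 10) left 13562 genes, scaled by TMM and tested with edgeR 4.0.16 in R 4.3.3 (robust quasi-likelihood, Benjamini-Hochberg adjusted p under 0.05 over all of them). The group fit had 4 residual degrees of freedom, the fit of single siRNAs 2, and the fit against the mock 3. The steps were tested on simulated data. Alternatives were RLE and upper quartile factors, DESeq2 1.42.0, limma-voom (limma 3.58.1), other filters, a replicate block, the mock apart, and left-out libraries; leaving out controls for siRNA pairs was chosen after seeing the data. Exon lengths came from GENCODE 29, and promoters and coordinates from RefSeq GRCh38.p14. Genes named were the members, CIP2A, up to 4 per list with the smallest p in the group comparison, any called list member, and 3 most alike genes per target.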

Additional observations from a re-analysis of the deposited data

Results flagged for a closer look

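In 4 cases the effect of a CIP2A siRNA differed from that of another by edgeR's test of the difference itself. ANKRD1 was higher with siCIP2A#1 than with siCIP2A#3 by 2.18 on the log2 scale (edgeR adjusted p = 0.0219), CYR61 by 0.82 (adjusted p = 0.0476) and TGFB2 by 1.57 (adjusted p = 0.0476). CIP2A differed between siCIP2A#1 and siCIP2A#2, with a log2 difference of -1.49 (edgeR adjusted p = 0.0302). Each siRNA has 1 library, so these compare libraries with a spread taken from the controls.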

How the results depend on the processing

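Of 620 values of the 10 genes under alternatives, 547 kept their direction and their side of the threshold, 51 passed it newly, 2 lost it and 20 changed sign; the cause was not tested. The number of genes edgeR called depended on the filter, without which 19137 genes were tested, and on the mock. With no filter it was 3 for the group, 169, 109 and 44 for siCIP2A#1, #2 and #3 against the controls, 156, 305 and 211 between siCIP2A#1 and #2, #1 and #3, and #2 and #3, and 5 for the non-targeting siRNAs against the mock. DESeq2 gave 3, then 75, 61 and 29, then 89, 144 and 96, and 3. The main counts were 0, then 16, 10 and 1, then 2, 69 and 0, and 0. Among the 10 genes, no filter gave 1, 1 and 2 called for the siRNAs against the controls and 2, 3 and 1 for the pairs, and DESeq2 gave 2 for siCIP2A#3, 2 for siCIP2A#1 against #2 and 1 for #2 against #3. For siCIP2A#1 against #3, RLE factors and the filter of 1 CPM each left 1, against 2.

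With 1 library left out, the genes called ranged over 0 to 1 for the group, 85 to 1896, 40 to 3088 and 32 to 1330 for siCIP2A#1, #2 and #3 against the controls, and 101 to 2302, 213 to 2477 and 108 to 3026 for the pairs in the order above. Each upper value but that of the group was without the mock. The members called ranged over 0 to 3, 0 to 6 and 2 to 3, and over 1 to 6, 3 to 5 and 1 to 4.

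Signs changed for AJUBA in the group with the mock given its own level (0.017) and for TEAD1 between siCIP2A#1 and #3 with no filter (-0.015). With 1 library left out they changed in the group for AJUBA (-0.24 to 0.017), AMOTL2 (-0.073 to 0.16), ANKRD1 (-0.84 to 0.14), CTGF (-0.49 to 0.13), GAS6 (-0.018 to 0.23), TEAD4 (-0.010 to 0.18) and TGFB2 (-0.34 to 0.66). They also changed with siCIP2A#1 for AMOTL2 (-0.010 to 0.23) and AXL (-0.0023 to 0.099); with siCIP2A#2 for AJUBA (-0.18 to 0.078) and LATS2 (-0.11 to 0.059). The same held with siCIP2A#3 for AJUBA (-0.24 to 0.018), between siCIP2A#1 and #3 for TEAD1 (-0.0017 to 0.0031), between the non-targeting siRNAs and the mock for CTGF (-0.19 to 0.21) and CYR61 (-0.19 to 0.024). Group values kept their sign for CYR61 (-0.59 to -0.15), LATS2 (0.027 to 0.27), YAP1 (-0.25 to -0.092), WWTR1 (-0.37 to -0.11), TEAD1 (-0.19 to -0.076) and AXL (-0.15 to -0.0062).

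The replicate numbers name reagents and were not taken to pair the libraries. Deviations of same-numbered libraries correlated at -0.12, -0.13 and 0.0076. Differences between reagents enter these values, so they cannot show that no libraries were paired. With the replicate number as a block, 1 gene, CIP2A (-2.03), and none of the 10 was called for the group. Tests of single siRNAs rest on 2 residual degrees of freedom, those of the 3 controls, to which edgeR adds information shared over all tested genes.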
